A study of Mus musculus with 11 samples.

Results

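The genes described here encode the machinery that brings newly made proteins to and through the membrane of the endoplasmic reticulum (ER). They cover the signal recognition particle (SRP) and its receptor, the SEC61 channel, the translocon-associated protein (TRAP) complex, signal peptidase, the insertion route for tail-anchored proteins and the ER membrane protein complex (EMC). The list held 44 names for 42 distinct genes, and its members were those found in the deposited table of normalized expression. Of the 42 genes, 40 were among the 11118 genes of that table, and all 40 passed the filter on low counts that left 10951 genes for testing. *Sec61g* and *Srp54b* were not in the normalized table, and *Hm13* was found there under its other symbol, *H13*.

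Transcripts were measured by bulk RNA-seq in 11 pools of type 1 conventional dendritic cells (cDC1s), which present antigen to CD8+ T cells. The cells were isolated by sorting from B16 melanomas grown in mice, and each pool came from 2 to 4 mice. The 4 control pools came from mice without Cre, namely XBP1 fl/fl mice for replicates 1 to 3 and XBP1 fl/fl IRE1 fl/fl mice for replicate 4. The 4 XBP1ΔDC pools came from XBP1 fl/fl mice that carried Cre under the *Itgax* (CD11c) promoter, which deletes XBP1 in CD11c-expressing cells and so not in cDC1s alone. The 3 XBP1ΔDCIRE1truncDC pools came from XBP1 fl/fl IRE1 fl/fl mice with the same Cre, whose IRE1 is truncated and lacks its RNase domain. All groups thus carried floxed XBP1 alleles, and the study used C57BL/6 mice of 6 to 14 weeks of age.

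Most secreted and membrane proteins reach the ER while they are still being made. SRP binds the signal peptide as it leaves the ribosome, the SRP receptor docks the complex at the membrane, and the chain is threaded through the SEC61 channel. TRAP, TRAM and SERP1 sit beside that channel, and signal peptidase cuts the signal peptide off. Tail-anchored proteins enter after translation through the GET/TRC pathway, and the EMC inserts other membrane segments. XBP1s, the transcription factor made after IRE1 splices *Xbp1* mRNA, is known for driving ER protein-folding and translocation genes in secretory cells.

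Total counts were 21089065 to 26843486 per pool, and levels are given as CPM, counts scaled to the same library size with factors from the trimmed mean of M-values (TMM). In control replicates 1 to 4, in that order, *Xbp1* was at 244, 249, 254 and 271 CPM, and it was at 130.1, 152, 161.4 and 165 CPM in XBP1ΔDC replicates 1 to 4, and at 212, 236 and 179 CPM in XBP1ΔDCIRE1truncDC replicates 1 to 3. Every Cre-positive pool was below the controls, and edgeR gave -0.74 on the log2 scale (standard error, SE, 0.0973, adjusted p = 0.00167) for XBP1ΔDC and -0.28 (SE 0.105, adjusted p = 0.324) for XBP1ΔDCIRE1truncDC. The deletion removes only part of *Xbp1*, and the paper states that XBP1ΔDC cells go on making an mRNA that IRE1 can cleave. Counts over the whole gene thus do not measure how complete the deletion was. *Ern1*, which encodes IRE1, was at 9.82 to 19.0 CPM in controls, 9.74 to 15.6 CPM in XBP1ΔDC and 17.0 to 26.0 CPM in XBP1ΔDCIRE1truncDC pools, and counts over the whole gene do not show the deleted exons. The 7 cDC1 markers, among them *Xcr1* and *Clec9a*, summed to 6530 to 7995 CPM per pool. Melanoma markers summed to 8.22 to 59.1 CPM in controls, 11.2 to 63.3 CPM in XBP1ΔDC and 6.30 to 8.76 CPM in XBP1ΔDCIRE1truncDC pools, and plasmacytoid dendritic cell markers to 110 to 127, 90.1 to 113 and 95.2 to 107 CPM. Macrophage and monocyte markers summed to 439 to 1187 CPM, with *Lyz2* at a mean of 815 CPM in controls, while T and NK cell markers reached at most 8.99 CPM, neutrophil markers 1.56 CPM, B and plasma cell markers 11.9 CPM, cDC2 markers 62.5 CPM and fibroblast markers 30.0 CPM, with *Jchain* and *Retnlg* at 0 in all pools. No marker of these lists passed the edgeR test in any comparison. At an unadjusted p under 0.05 there were 2 markers in XBP1ΔDC and 5 in XBP1ΔDCIRE1truncDC against control and 3 between the Cre-positive groups, and DESeq2 called 1, *Derl3* of the plasma cell list, higher in XBP1ΔDCIRE1truncDC than in control. The part of such cells in the results below was not tested. In sorted pools, fewer cells of a type and less RNA per cell cannot be told apart.

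Parts of 3 promoters are shown because these genes, *Serp1*, *Ssr1* and *Ssr3*, were lower in both Cre-positive groups and hold short letters known from XBP1s target promoters, as many other promoters do. XBP1s is known to bind elements with an ACGT core, and the ER stress response element (ERSE) joins a CCAAT box, bound by NF-Y, to CCACG. The sequences are from RefSeq on GRCm38.p6, read 5′ to 3′ on the strand of the gene, with position -1 as the base before the annotated start site. Capitals mark the CCAAT box, the motif CCACG and the motif ACGTG on either strand. The last of these reads CACGT on the other strand and can overlap the second.
*Serp1* (chr3:58525905-58526044, minus strand, positions -160 to -21): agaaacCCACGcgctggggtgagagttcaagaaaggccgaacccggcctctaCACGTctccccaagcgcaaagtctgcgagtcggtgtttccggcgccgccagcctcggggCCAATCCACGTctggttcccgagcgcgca
*Ssr1* (chr13:37994224-37994298, minus strand, positions -90 to -16): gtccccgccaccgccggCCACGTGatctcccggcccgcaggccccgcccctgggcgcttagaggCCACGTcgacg
*Ssr3* (chr3:65392654-65392753, minus strand, positions -200 to -101): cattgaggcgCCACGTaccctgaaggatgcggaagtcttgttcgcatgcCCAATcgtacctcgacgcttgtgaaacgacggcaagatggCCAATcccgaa

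In *Serp1* a CCAAT box began at -49 with CCACG directly after it at -44. *Ssr1* held CCACG at -73 and -26, and *Ssr3* held CCACG at -190 and CCAAT at -151 and -111. Such short letters are common. CCACG was in 32.8%, CCAAT in 37.4% and ACGTG in 19.6% of all 32851 promoter windows of 300 bases, each searched on both strands. Among tested genes with a window the shares were higher, at 53.2%, 43.2% and 30.0%. The letters were not limited to members that fell. CCACG was in the window of 18, ACGTG of 14 and CCAAT of 6 of the 25 members with a window that did not pass. Of the 6 members with a window that passed, 4 held CCACG, 3 ACGTG and 3 CCAAT. *Sec61b* and *Ssr4*, which also fell, held none of them. The longer elements ERSE, ERSE-II and UPRE, of which the first 2 hold both the CCAAT box and CCACG and the last contains the motif ACGTG, were in 0.119%, 0.0365% and 0.676% of all windows. None of the 3 was in the window of any of the 31 members that had one. Only 6 of the 11 members lower in XBP1ΔDC had a window, too few for a comparison of the set with other promoters, so that check is void. The matches describe letters and not binding.

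XBP1ΔDC was compared with control to see which of these genes differ when XBP1 is deleted. From *Xbp1* splicing, the paper also reports signs of IRE1 hyperactivation in tumor cDC1s of XBP1ΔDC mice. Its part in the values below was not tested. With edgeR's quasi-likelihood test and Benjamini-Hochberg adjustment over all genes tested, 11 of 40 members were lower in XBP1ΔDC at an adjusted p under 0.05, or 27.5%, against 0.858% of all genes tested. They were the channel genes *Sec61a1* and *Sec61b*, the TRAP genes *Ssr1* to *Ssr4*, the channel-associated *Serp1* and *Tram1*, and the signal peptidase genes *Spcs2*, *Spcs3* and *Sec11c*. No member was higher. All 17 members with an unadjusted p under 0.05, or 42.5%, were lower, against 7.62% of all genes at that level in either direction. DESeq2 called 12 members and limma 11, all lower, against 163 and 95 lower genes among all they tested. A fold change above 1.5 was also met by 5 of them (*Sec61a1*, *Sec61b*, *Serp1*, *Spcs2* and *Spcs3*), against 0.466% of all genes that were such differentially expressed genes (DEGs) and lower. In 14 of 40 members every XBP1ΔDC pool was below every control pool, which held for 3.67% of all genes. The median log2 fold change was -0.19 over the 40 members and 0.0050 over all genes tested. The members were chosen with earlier results of these data known. Their median SE here was 0.0917, against 0.1525 over all genes, so a change of the same size was easier to call in them. Both limits also apply to the shares given below.

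XBP1ΔDCIRE1truncDC was compared with the same 4 control pools to see the members when the IRE1 RNase was lost as well. Of the 40 members 10, or 25%, were lower at an adjusted p under 0.05, against 0.292% of all genes tested, and none was higher. They were the genes lower in XBP1ΔDC without *Sec11c*. All 18 members with an unadjusted p under 0.05, or 45%, were lower, against 11.2% of all genes at that level in either direction. DESeq2 called 12, *Sec11c* among them, and limma 10, against 116 and 34 lower genes among all they tested. There were 5 DEGs (*Sec61a1*, *Sec61b*, *Ssr3*, *Serp1* and *Spcs2*), against 0.146% of all genes, and 17 members had every XBP1ΔDCIRE1truncDC pool below every control pool, against 5.81% of all genes. The median log2 fold change was -0.16 over the members and -0.0031 over all genes. These counts rested on few pools. Without XBP1ΔDCIRE1truncDC replicate 1 the test called 5 members and without replicate 3 it called 4, with 3 DEGs in each case.

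**Figure D1:**
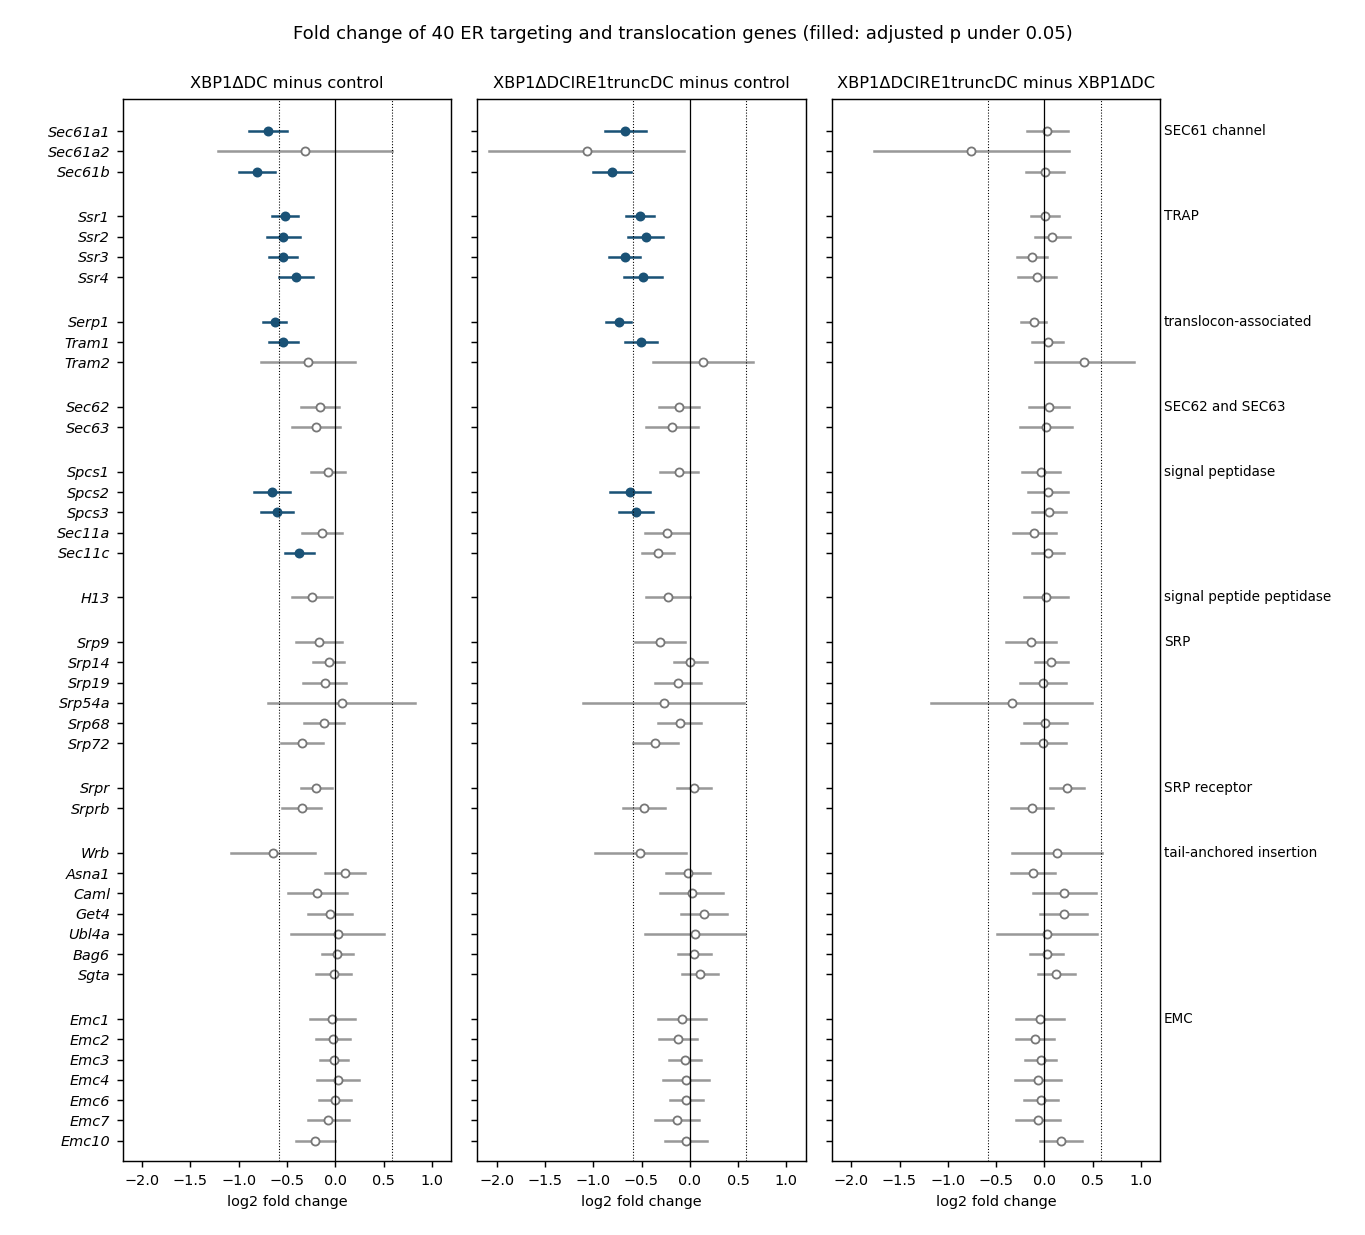
Log2 fold change (x axis) of the 40 members (rows, grouped by role) in the 3 comparisons, with 95% intervals; filled points have an adjusted p under 0.05 and dotted lines mark a fold change of 1.5. Filled points lie to the left of 0 in the 2 comparisons with control, in the SEC61, TRAP, channel-associated and signal peptidase rows, and the comparison of the 2 Cre-positive groups has none.

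The SEC61 channel is built from alpha, beta and gamma subunits. *Sec61a1*, the pore-forming alpha subunit, lies on chromosome 6 (88503579 to 88518905 on GRCm38, GENCODE vM21). It was at 543, 479, 468 and 428 CPM in the controls (here and below in the order of the replicate numbers), at 314, 289.9, 323 and 258 CPM in XBP1ΔDC replicates 1 to 4, and at 299.5, 322 and 285 CPM in XBP1ΔDCIRE1truncDC replicates 1 to 3. All 7 Cre-positive pools were below all 4 controls. It fell by 0.69 on the log2 scale (SE 0.0908, adjusted p = 0.00167) in XBP1ΔDC and by 0.67 (SE 0.0991, adjusted p = 0.0100) in XBP1ΔDCIRE1truncDC. An annotated antisense gene shares 14.6% of the 50-base stretches of its longest protein-coding transcript, and the counting is not stated to use strand. *Sec61b*, the beta subunit (chromosome 4, 47474658 to 47483242), was at 99.5, 102, 88.8 and 96.9 CPM in controls, at 58.9, 54.2, 59.4 and 48.2 CPM in XBP1ΔDC and at 54.4, 55.8 and 55.8 CPM in XBP1ΔDCIRE1truncDC pools. The groups did not overlap, and its log2 fold changes of -0.81 (SE 0.0843, adjusted p = 0.000381) and -0.81 (SE 0.0922, adjusted p = 0.00307) were the largest among members that passed in either comparison. Of the 50-base stretches in its longest protein-coding transcript, 41.0% also occur in 3 other annotated genes, so part of its count is uncertain. The *Sec61a1* call in XBP1ΔDCIRE1truncDC was lost without replicate 1 (adjusted p = 0.0622) or replicate 3 (adjusted p = 0.0581) of that group. *Sec61a2*, a second alpha subunit gene, was at 0.695 to 3.98 CPM over all pools, with log2 fold changes of -0.31 (SE 0.417) and -1.07 (SE 0.467) that did not pass.

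TRAP, also called the signal sequence receptor, helps some signal peptides open the channel, and all 4 of its genes fell in both comparisons. *Ssr1*, the alpha subunit (chromosome 13, 37966605 to 37994217), was at 259, 239, 246 and 253 CPM in controls, at 162, 174, 181 and 178 CPM in XBP1ΔDC and at 169.8, 176 and 176 CPM in XBP1ΔDCIRE1truncDC pools. Its log2 fold change was -0.52 in both (standard errors 0.0628 and 0.0684, adjusted p = 0.00105 and 0.00551). *Ssr3*, the gamma subunit (chromosome 3, 65379655 to 65392623), was at 311, 329, 346 and 299 CPM in controls, at 222, 232, 213 and 215 CPM in XBP1ΔDC and at 204, 207 and 192 CPM in XBP1ΔDCIRE1truncDC pools. The 3 groups were in that order without overlap. It fell by 0.54 (SE 0.0670, adjusted p = 0.00135) and by 0.67 (SE 0.0733, adjusted p = 0.00307) on the log2 scale.

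*Ssr2*, the beta subunit (chromosome 3, 88575876 to 88588419), was at 108, 109, 102 and 117 CPM in controls, at 77.4, 79.9, 74.8 and 68.2 CPM in XBP1ΔDC and at 74.8, 84.6 and 78.6 CPM in XBP1ΔDCIRE1truncDC pools. No Cre-positive pool reached the controls, and the log2 fold changes were -0.54 (SE 0.0779, adjusted p = 0.00362) and -0.46 (SE 0.0847, adjusted p = 0.0416). *Ssr4*, the delta subunit on the X chromosome (73787028 to 73790830), was at 84.3, 84.5, 73.1 and 74.5 CPM in controls, at 60.6, 55.8, 58.0 and 63.8 CPM in XBP1ΔDC and at 59.4, 56.3 and 53.7 CPM in XBP1ΔDCIRE1truncDC pools. These groups did not overlap with control either. Its log2 fold changes were -0.41 (SE 0.0820, adjusted p = 0.0354) and -0.49 (SE 0.0894, adjusted p = 0.0396). The *Ssr4* call in XBP1ΔDC was lost without any one of control replicates 1, 2 and 4 and the 4 XBP1ΔDC pools (adjusted p = 0.0536 to 0.129). In XBP1ΔDCIRE1truncDC it was lost without any one of the 11 pools (adjusted p = 0.0537 to 0.136), and the *Ssr2* call without any pool but XBP1ΔDC replicate 4 (adjusted p = 0.0523 to 0.137). The direction stayed in each of these fits.

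Among the channel-associated genes, *Serp1*, a small membrane protein that binds the channel under ER stress (chromosome 3, 58519817 to 58525892), was at 798, 882, 814 and 844 CPM in controls, at 536, 546, 551 and 531 CPM in XBP1ΔDC and at 509, 493 and 499 CPM in XBP1ΔDCIRE1truncDC pools. Its Cre-positive pools lay within a narrow range well below the controls. The log2 fold changes were -0.63 (SE 0.0555, adjusted p = 0.000155) and -0.74 (SE 0.0608, adjusted p = 0.000259), with the smallest adjusted p of all members in both comparisons. *Tram1*, which contacts the entering chain (chromosome 1, 13564698 to 13589910), was at 462, 534, 492 and 476 CPM in controls, at 343, 343, 359 and 306 CPM in XBP1ΔDC and at 354, 349 and 334 CPM in XBP1ΔDCIRE1truncDC pools. It was below control in all 7 pools, with log2 fold changes of -0.54 (SE 0.0703, adjusted p = 0.00167) and -0.51 (SE 0.0765, adjusted p = 0.0105). Its call in XBP1ΔDCIRE1truncDC was lost without replicate 1 (adjusted p = 0.0513) or replicate 3 (adjusted p = 0.0602) of that group. Its paralog *Tram2* was at 3.57 to 6.37 CPM and did not pass, with log2 fold changes of -0.28 (SE 0.223) and 0.13 (SE 0.239).

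**Figure D2:**
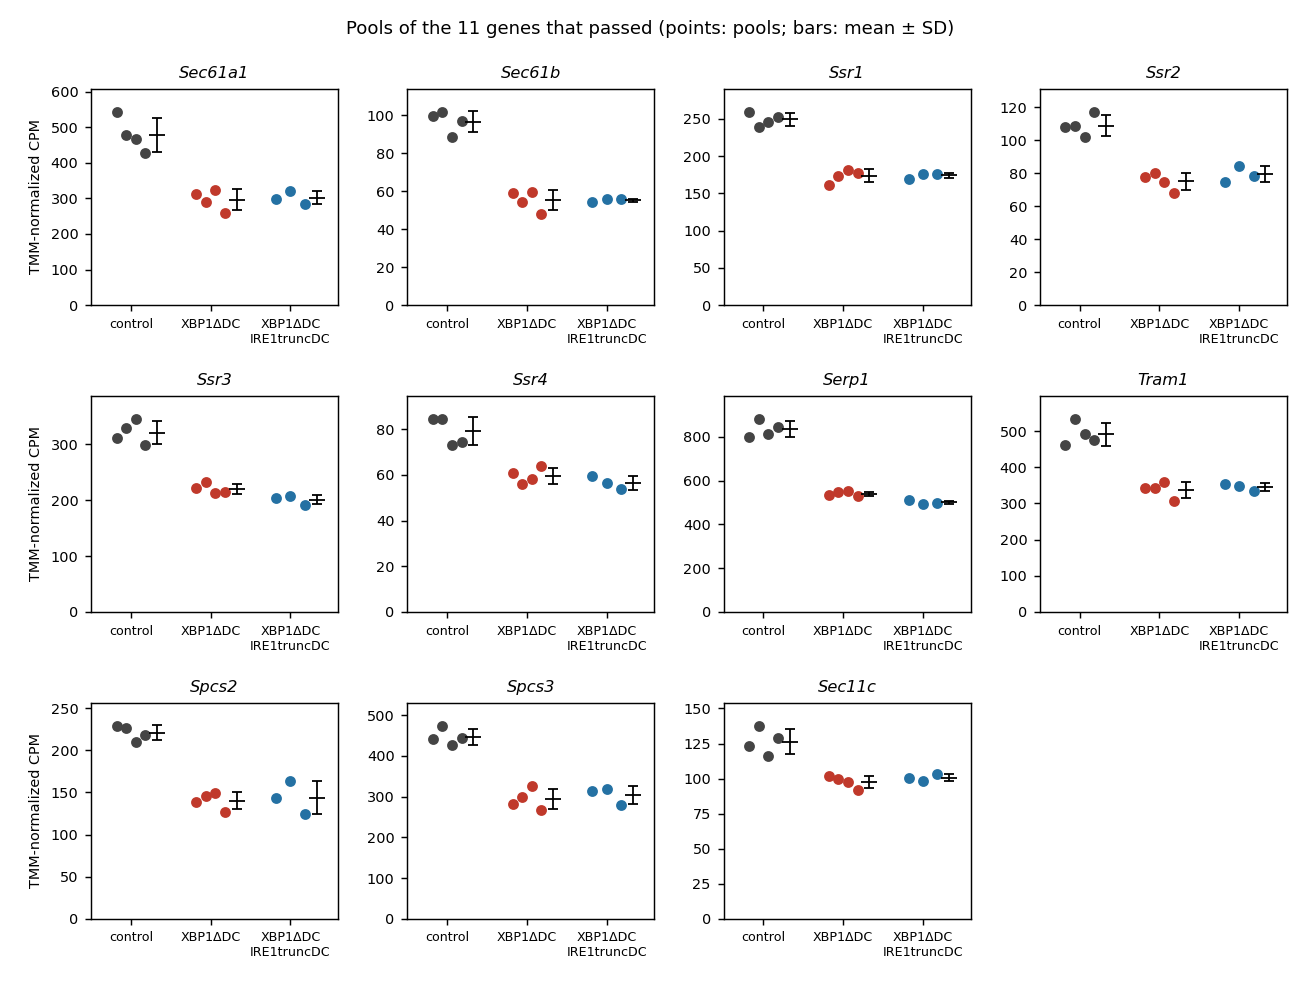
TMM-normalized CPM (y axis, from 0) of the 11 genes that passed, 1 point per pool, with mean ± SD beside the points of each group. Each gene has its XBP1ΔDC and XBP1ΔDCIRE1truncDC pools below all 4 control pools, for example *Serp1* at 798 to 882 CPM in controls and at most 551 CPM in the other 2 groups.

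Signal peptidase joins a catalytic subunit, SEC11A or SEC11C, to the accessory subunits SPCS1, SPCS2 and SPCS3, and its genes differed in response. *Spcs2* (chromosome 7, 99837569 to 99863462) was at 229, 227, 209.9 and 218 CPM in controls, at 139, 146, 149 and 127 CPM in XBP1ΔDC and at 143, 164 and 124 CPM in XBP1ΔDCIRE1truncDC pools. It fell by 0.66 (SE 0.0879, adjusted p = 0.00202) and by 0.62 (SE 0.0959, adjusted p = 0.0127) on the log2 scale. *Spcs3* (chromosome 8, 54520433 to 54529998) was at 442, 474, 427 and 444 CPM in controls, at 282, 299, 326 and 268 CPM in XBP1ΔDC and at 314, 318 and 279 CPM in XBP1ΔDCIRE1truncDC pools. Both genes were below all controls in every Cre-positive pool, and *Spcs3* had log2 fold changes of -0.61 (SE 0.0760, adjusted p = 0.00143) and -0.56 (SE 0.0827, adjusted p = 0.0100). In XBP1ΔDCIRE1truncDC the *Spcs2* call was lost without control replicate 1 or 2 or XBP1ΔDCIRE1truncDC replicate 1 or 3, and with only the 2 groups in the fit (adjusted p = 0.0504 to 0.0693). The *Spcs3* call was lost without XBP1ΔDCIRE1truncDC replicate 3 (adjusted p = 0.0537).

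*Sec11c*, a catalytic subunit, was at 123, 138, 116 and 129 CPM in controls, at 102, 99.5, 97.8 and 91.95 CPM in XBP1ΔDC and at 101, 98.0 and 103 CPM in XBP1ΔDCIRE1truncDC pools. All Cre-positive pools were below the controls. It fell by 0.37 (SE 0.0709, adjusted p = 0.0273) in XBP1ΔDC, and its log2 fold change of -0.33 (SE 0.0770, adjusted p = 0.111) in XBP1ΔDCIRE1truncDC did not pass in edgeR. DESeq2 called it in both comparisons with control. The 2 Cre-positive groups differed by 0.04 (SE 0.0765, adjusted p = 0.998). The *Sec11c* call was lost without each of 7 pools in turn (adjusted p = 0.0572 to 0.1002), namely control replicates 1, 2 and 4 and all 4 XBP1ΔDC replicates. The other catalytic subunit, *Sec11a*, was at 74.1 to 91.1 CPM in controls and 64.3 to 79.4 CPM in the other pools, with log2 fold changes of -0.13 (SE 0.0958) and -0.24 (SE 0.104) that did not pass. *Spcs1* was at 89.5 to 98.1 CPM in controls and 79.1 to 98.6 CPM elsewhere, with log2 fold changes of -0.07 (95% interval -0.25 to 0.10) and -0.11 (-0.30 to 0.08). *H13*, the signal peptide peptidase that cleaves leftover signal peptides in the membrane, was at 345 to 411 CPM in controls and 282 to 376 CPM in the other pools. Its log2 fold changes of -0.24 (adjusted p = 0.540) and -0.23 (adjusted p = 0.444) did not pass.

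No gene of the targeting step passed. Of the 6 SRP protein genes measured (*Srp9*, *Srp14*, *Srp19*, *Srp54a*, *Srp68* and *Srp72*), edgeR, DESeq2 and limma called 0 in each comparison. At an unadjusted p under 0.05 there was 1 in XBP1ΔDC and 2 in XBP1ΔDCIRE1truncDC, against 7.62% and 11.2% of all genes. *Srp72*, which with *Srp68* forms the large SRP heterodimer, was at 125, 115, 114 and 109 CPM in controls, at 81.3, 93.5, 90.03 and 99.4 CPM in XBP1ΔDC and at 101, 95.8 and 74.3 CPM in XBP1ΔDCIRE1truncDC pools. Its groups did not overlap with control, but its log2 fold changes of -0.35 (SE 0.101, adjusted p = 0.236) and -0.36 (SE 0.109, adjusted p = 0.238) missed the threshold. *Srp14*, of the Alu domain that slows translation, was at 83.9 to 94.8 CPM in controls and 84.0 to 98.2 CPM elsewhere, with log2 fold changes of -0.07 (95% interval -0.23 to 0.09) and 0.0040 (-0.17 to 0.18). The SRP receptor alpha gene *Srpr* had log2 fold changes of -0.20 (SE 0.0750, adjusted p = 0.500) and 0.04 (SE 0.0808, adjusted p = 0.916). Its beta partner *Srprb* was at 55.2, 49.6, 47.7 and 52.8 CPM in controls, at 38.5, 43.4, 43.4 and 35.9 CPM in XBP1ΔDC and at 39.0, 36.1 and 35.7 CPM in XBP1ΔDCIRE1truncDC pools. It was below control in all 7 pools, with log2 fold changes of -0.35 (adjusted p = 0.176) and -0.47 (adjusted p = 0.0783) in edgeR, and DESeq2 called it in both comparisons. Of the 50-base stretches in its longest protein-coding transcript, 28.4% also occur in an overlapping gene on the same strand. *Sec62* and *Sec63*, which serve post-translational import through the channel, had log2 fold changes of -0.20 to -0.11 and did not pass.

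The insertion routes that bypass SEC61 did not pass either, with 0 of 7 tail-anchored insertion genes and 0 of 7 EMC genes called by edgeR, DESeq2 or limma in any comparison. At an unadjusted p under 0.05 there was 1 tail-anchored gene in each comparison with control, and 1 EMC gene in XBP1ΔDC. The share of all genes at that level was 7.62% in XBP1ΔDC and 11.2% in XBP1ΔDCIRE1truncDC. The tail-anchored gene was *Wrb*, the ER receptor subunit also named GET1, at 12.8, 13.2, 15.5 and 21.7 CPM in controls, at 9.96, 8.83, 13.3 and 8.23 CPM in XBP1ΔDC and at 10.4, 11.3 and 11.4 CPM in XBP1ΔDCIRE1truncDC pools. Control and XBP1ΔDC overlapped, and its log2 fold changes were -0.65 (SE 0.200, adjusted p = 0.301) and -0.51 (SE 0.217, adjusted p = 0.392). The ATPase *Asna1* (GET3) and the pre-targeting genes *Bag6*, *Sgta*, *Get4* and *Ubl4a* and the receptor *Caml* had log2 fold changes of -0.19 to 0.15. For the EMC genes the range was -0.21 to 0.03 in XBP1ΔDC and -0.14 to -0.04 in XBP1ΔDCIRE1truncDC, with *Emc10* at the lower end in XBP1ΔDC (-0.21, 95% interval -0.41 to -0.0046). *Emc3*, whose protein forms the insertase core, was at 91.05 to 97.4 CPM in controls and 83.9 to 97.5 CPM elsewhere, and its 95% intervals were -0.16 to 0.14 and -0.21 to 0.11.

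**Figure D3:**
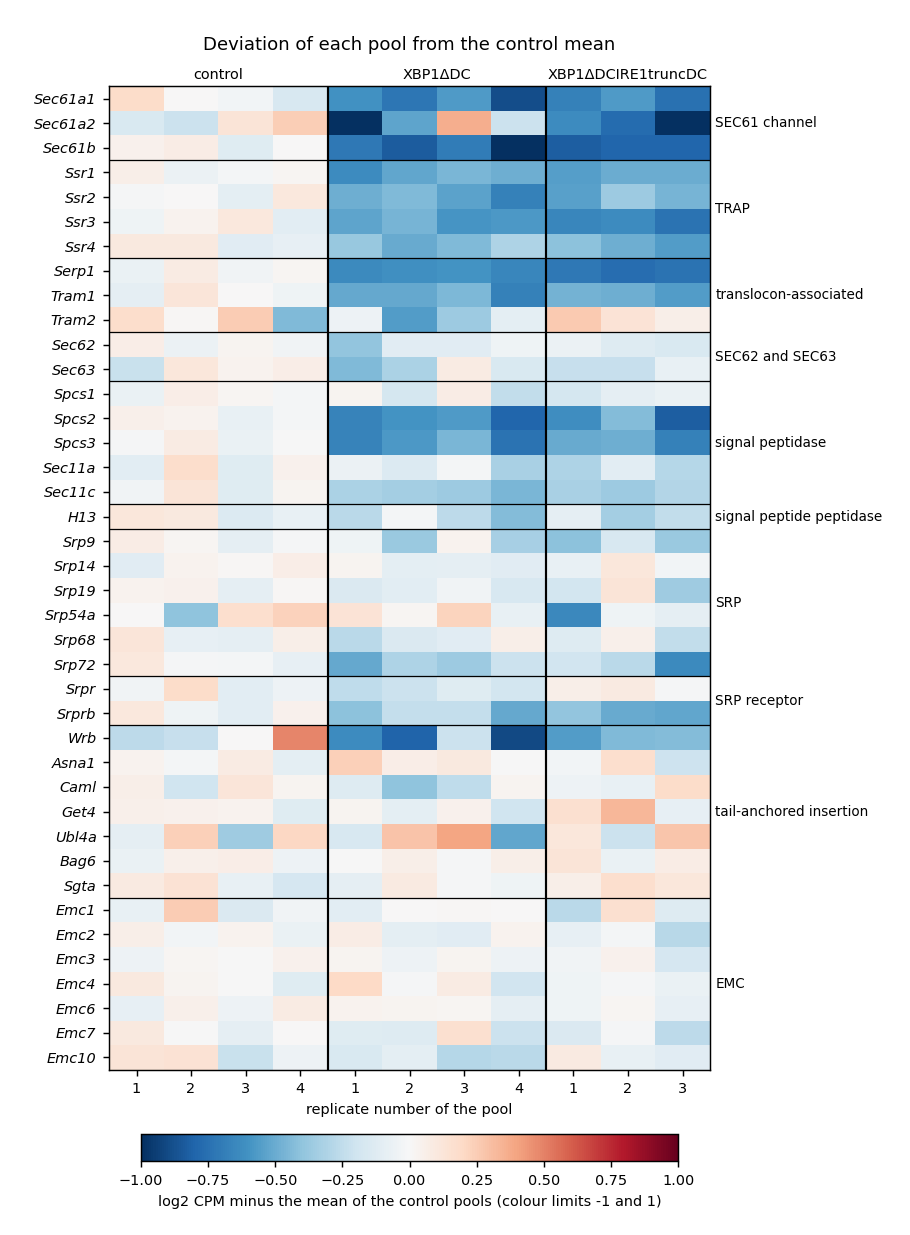
Log2 CPM of each member (rows, grouped by role) in each pool (columns) minus the mean of the 4 control pools, from blue (lower) to red (higher), with colours limited at -1 and 1. The 11 genes that passed are below the control mean in all 7 Cre-positive pools. So are *Srp72*, *Srprb*, *Wrb*, *H13*, *Sec11a* and *Sec62*, which did not pass, some of them only faintly. The row of *Ubl4a* (7.18 to 13.6 CPM) varies in both directions within every group.

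Some members that did not pass were measured as precisely as those that did. In XBP1ΔDC, 9 of the 29 members that did not pass had a standard error no larger than 0.0908, the largest among those that passed, and their log2 fold changes were -0.20 to 0.02. In XBP1ΔDCIRE1truncDC the same held for 10 of 30, at -0.33 to 0.11. These genes were picked for a small standard error and for not passing. Small fold changes follow in part from that choice, so the ranges are a description only. Of the 29 members that passed in no comparison, 25 had an interval within a fold change of 1.5 in either direction in XBP1ΔDC and 23 in XBP1ΔDCIRE1truncDC. The exceptions in both were *Srp54a*, *Sec61a2* and *Tram2*, at most 6.37 CPM in any pool, and *Wrb*, at 8.23 to 21.7 CPM, with *Srp72* and *Srprb* besides in XBP1ΔDCIRE1truncDC.

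The 40 members together took 5561 ± 184 CPM (SD, n = 4) in controls, 4209 ± 159 CPM (SD, n = 4) in XBP1ΔDC and 4212 ± 145 CPM (SD, n = 3) in XBP1ΔDCIRE1truncDC pools. The 11 genes that passed held 3454 ± 101, 2291 ± 99.1 and 2263 ± 73.2 CPM of this, and the other 29 held 2106 ± 85.2, 1919 ± 62.4 and 1950 ± 72.2 CPM. Those 29 genes had a median log2 fold change of -0.11 in both comparisons, and 24 and 21 of them had a negative value. By length, the most abundant members in controls were *Serp1* at 181 ± 7.95, *Tram1* at 155 ± 9.84 and *Spcs3* at 129 ± 5.61 CPM per kb of exon (SD, n = 4). *Ssr3* at 77.0 ± 4.94, *Sec61b* at 76.1 ± 4.45, *Srp14* at 76.0 ± 4.01 CPM per kb followed, with means that differed by less than the SD of each. *Sec61a1* came next at 71.2 ± 7.11 CPM per kb, and its SD reached the means of those 3 genes. In XBP1ΔDC *Srp14* was at 72.4 ± 3.21 CPM per kb, above *Sec61b* at 43.4 ± 4.11, *Sec61a1* at 44.0 ± 4.31 and *Ssr3* at 52.9 ± 2.05 CPM per kb. The median over the members in controls was 24.7 CPM per kb, against 5.90 over 10540 tested genes with 1 gene model of their symbol.

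**Figure D4:**
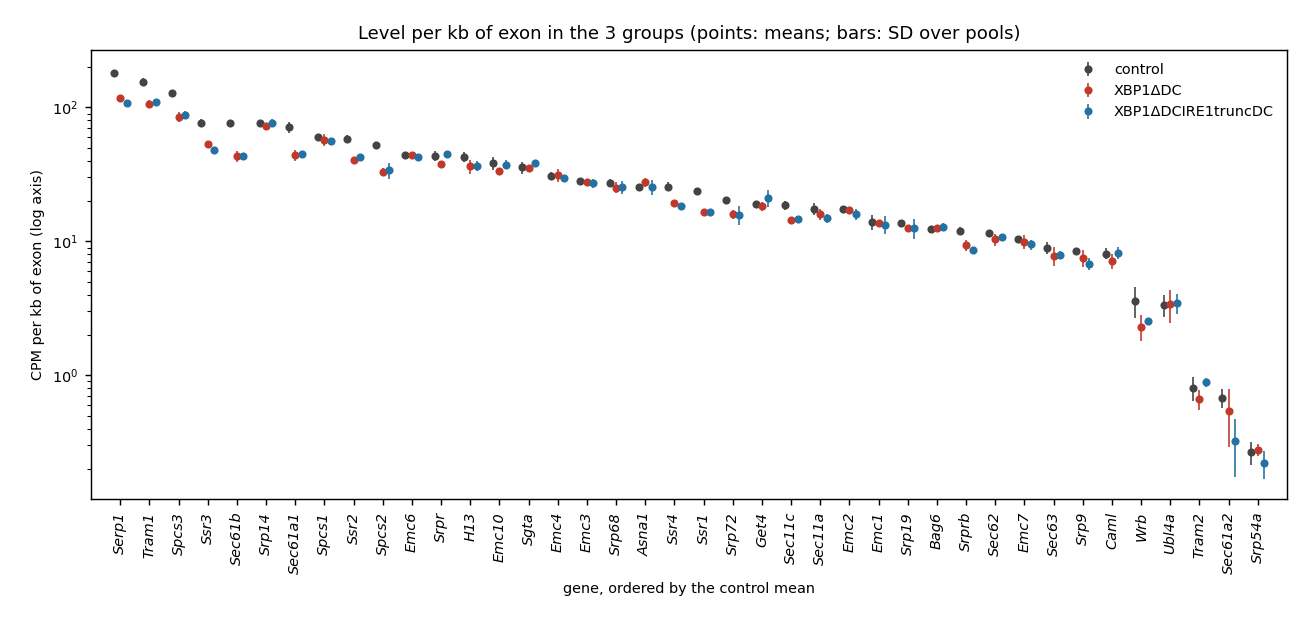
Mean CPM per kb of exon (y axis, log scale) of the 40 members in order of their control level, with SD over 4, 4 and 3 pools. *Srp14* overlaps across the groups at 72.4 to 76.2 CPM per kb, while the neighbouring *Ssr3*, *Sec61b* and *Sec61a1* drop from 71.2 to 77.0 in controls to 43.4 to 52.9 in the Cre-positive groups.

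The 2 Cre-positive groups were compared to see the effect of losing the IRE1 RNase on top of XBP1. EdgeR, DESeq2 and limma called 0 of 40 members in either direction, against 0% of all genes lower and 0.0731% higher in edgeR. At an unadjusted p under 0.05 there was 1 member, *Srpr*, or 2.5%, against 5.29% of all genes. It was at 122, 126, 134 and 128 CPM in XBP1ΔDC and at 152, 155 and 145 CPM in XBP1ΔDCIRE1truncDC pools. These pools did not overlap, with a log2 difference of 0.24 (SE 0.0807, 95% interval 0.06 to 0.41, adjusted p = 0.713). Every XBP1ΔDCIRE1truncDC pool was below every XBP1ΔDC pool for 2 members, *Ssr3* and *Serp1*, or 5%, against 2.96% of all genes. Their log2 differences were -0.13 (95% interval -0.29 to 0.03) and -0.11 (-0.24 to 0.02). In the opposite direction there were also 2 members without overlap, *Srpr* and *Tram2*, or 5%, against 3.11% of all genes, and *Tram2* differed by 0.42 (95% interval -0.10 to 0.93). For the 11 genes lower in XBP1ΔDC, the log2 difference between the Cre-positive groups was -0.13 to 0.08. Their 95% intervals ran from -0.29 at the lowest to 0.26 at the highest, and all 11 lay within a fold change of 1.5 in either direction. These genes were picked by their low values in XBP1ΔDC, 1 of the 2 groups compared here. The intervals do not allow for that choice and cannot be taken at face value.

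The study took 60 XBP1s target genes and 79 genes cleaved by the IRE1 RNase (RIDD targets) from the literature. The XBP1s list held 11 of the 40 members, and the RIDD list held none. Of the 11, edgeR called 10 lower in XBP1ΔDC and 9 in XBP1ΔDCIRE1truncDC, with *H13* as the exception in both and *Sec11c* in the latter. Of the 29 members on neither list, 1 was lower in each comparison with control, *Ssr2*. Over the whole XBP1s list 26 of 60 genes were lower in XBP1ΔDC and 16 in XBP1ΔDCIRE1truncDC, against 0.858% and 0.292% of all genes tested. The list describes known targets, and no test was made of the difference between listed and unlisted members.

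Oligosaccharyltransferase, which works beside the channel and attaches glycans to entering chains, also fell in part. Of its 12 genes, edgeR called 6 lower in XBP1ΔDC and 3 in XBP1ΔDCIRE1truncDC, against 0.858% and 0.292% of all genes tested. DESeq2 called 6 in each, against 163 and 116 lower genes of the 10951 tested. The median log2 fold changes were -0.41 and -0.36. *Stt3a*, the catalytic subunit of the form bound to the channel, had log2 fold changes of -0.53 (adjusted p = 0.00166) and -0.52 (adjusted p = 0.0100). *Ddost* had -0.57 (adjusted p = 0.00143) and -0.53 (adjusted p = 0.0100), and *Ostc* had -0.53 (adjusted p = 0.00287) and -0.56 (adjusted p = 0.0100). *Rpn1*, which is on the study's RIDD list described above, fell by 0.80 on the log2 scale in XBP1ΔDC (adjusted p = 0.00081). Its value of -0.46 in XBP1ΔDCIRE1truncDC did not pass in edgeR (adjusted p = 0.0812), while DESeq2 called it lower in both comparisons with control. The difference between those groups was 0.33 (adjusted p = 0.538). *Stt3b*, the catalytic subunit of the form that works without the channel, had -0.05 and 0.15 and did not pass. Of 9 genes of the multipass translocon and remaining EMC, 1 was lower in XBP1ΔDC, *Ncln* (log2 fold change -0.47, adjusted p = 0.0150), and 0 in XBP1ΔDCIRE1truncDC with edgeR and DESeq2, also at an unadjusted p under 0.05. EdgeR and limma called 0 of 3 ribosome receptor genes, 0 of 5 GPI transamidase genes and 0 of 6 other SRP and insertion genes in each comparison with control. In XBP1ΔDC there were 2, 1 and 2 of them at an unadjusted p under 0.05, against 7.62% of all genes. In XBP1ΔDCIRE1truncDC there were 2, 0 and 0, against 11.2% of all genes. DESeq2 called *Rrbp1* (lower) in XBP1ΔDC and *Ktn1* (higher) in XBP1ΔDCIRE1truncDC and no other gene of these 3 lists.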

How the data were processed

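RNA-seq libraries came from 11 pools of tumor cDC1s, 4 control, 4 XBP1ΔDC and 3 XBP1ΔDCIRE1truncDC, grouped by the GEO labels. The authors preamplified the RNA with SMART-seq v4, sequenced single-end reads, and deposited raw counts per gene made with FastQC 0.11.8, Trimmomatic 0.39, STAR 2.7.3a on mm10 and HTSeqCount. The annotation and the strand setting are not given in the sources used here. They also deposited log2 values for 11118 genes, which equal voom log2 CPM after TMM scaling to within 4.97e-14.

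Genes with a CPM above 1 in at least 4 pools (10951 of 24421) were tested on the counts with edgeR 4.0.16 (TMM, quasi-likelihood F test, 1 fit of the 3 groups, R 4.3.3) and Benjamini-Hochberg adjustment. "Passed" means an adjusted p under 0.05, and a DEG also has a fold change above 1.5. Standard errors are the log2 fold change over the square root of F. Intervals are 95%. The procedure was tested on simulated data.

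Total counts were 21089065 to 26843486 per pool, and intervals reflect the spread between pools, the only replicates. Pools did not duplicate each other (chi-square per degree of freedom 19.9 to 61.5). Same-numbered pools did not deviate together on average (mean r -0.0259 over 10 pairs, of which 2 were above 0.1), so the numbers were not used as pairs. The mean hides unlike parts. Same-numbered pairs of control with XBP1ΔDC were all positive, at 0.0418 to 0.133, and those of the 2 Cre-positive groups all negative, at -0.260 to -0.142. Pairs with unlike numbers ran from -0.202 to 0.307. A replicate block was among the alternative fits.

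The members and lists were chosen with earlier results of these data known. Every member that passed is named with its values, members that did not pass are given by ranges and counts (with pool values for *Srp72*, *Srpr*, *Srprb* and *Wrb*, chosen after they were seen), and at most 4 genes with the smallest p are named from each further list, with *Stt3b*, *Rrbp1*, *Ktn1* and *Derl3* added after their values were seen. Positions and exon lengths are from GENCODE vM21 on GRCm38, and promoters from RefSeq on GRCm38.p6. Alternatives were DESeq2 1.42.0, relative log expression (RLE) factors, library size alone, no filter, limma 3.58.1 on the deposited log2 values, the newer quasi-likelihood method, only the 2 groups compared, a replicate block, and each pool left out in turn.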

Additional observations from a re-analysis of the deposited data

How the results depend on the processing

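The genes that passed kept the direction of their change in that comparison in all 19 alternative fits, counting the 11 that leave out 1 pool. Fold changes of the other members were not compared across fits. The number of members lower in XBP1ΔDC was 9 to 12 over the 8 fits of other kinds and 9 to 11 with 1 pool left out. The number of DEGs was 4 to 5. In XBP1ΔDCIRE1truncDC the number lower was 4 with a replicate block and up to 12 with DESeq2. With a pool left out it was 4 to 9, namely 5 without XBP1ΔDCIRE1truncDC replicate 1 and 4 without replicate 3, and DEGs numbered 3 to 6. No member was called between the Cre-positive groups in any fit. *Sec61b*, *Serp1* and *Ssr3* passed against control in both groups in all 19 fits, and *Sec61a1*, *Spcs2*, *Spcs3*, *Ssr1*, *Ssr2* and *Tram1* in XBP1ΔDC. Calls were lost for *Sec11c* in 9 fits and *Ssr4* in 11 in XBP1ΔDC, and in XBP1ΔDCIRE1truncDC for *Ssr4* in 14, *Ssr2* in 13, *Spcs2* in 6, *Tram1* in 3, *Spcs3* and *Sec61a1* in 2 each and *Ssr1* in 1. The cause was not tested.

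Over all genes, 94 were lower in XBP1ΔDC, against 163 with DESeq2, 59 with the replicate block and 59 without control replicate 1. Higher genes numbered 4, against 18 with DESeq2 and 0 with the block. In XBP1ΔDCIRE1truncDC 32 were lower, against 116 with DESeq2, 19 with only the 2 groups compared, 10 with the block and 12 without XBP1ΔDCIRE1truncDC replicate 3. Higher genes there numbered 7, against 83 with DESeq2. Between the Cre-positive groups 8 were higher and 0 lower, against 45 and 14 with DESeq2. Depth limits the lowest genes, *Srp54a* at 22 to 43 reads per pool among them.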

Other observations

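*Sec61g*, which encodes the gamma subunit of the channel, had 2 to 17 reads per pool, while *Sec61a1* had 6340 to 12939. Of the 50-base stretches in the longest protein-coding transcript of *Sec61g*, 20.5% also occur in 5 other annotated genes. *Srp54a* had 22 to 43 reads per pool, *Srp54b* 0 to 1 and *Srp54c* 0 in all pools. Of the 50-base stretches in the longest protein-coding transcript of *Srp54a*, 75.2% occur in the other 2 genes. The part of shared sequence in these low counts was not tested.

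Ratios of counts within a pool set paralogs side by side without a test. How often the ratios of other gene pairs separate between the groups was not counted, so a lack of overlap here is a description only. *Sec11c* over *Sec11a* averaged 1.57 ± 0.056 over the 4 control pools, 1.33 ± 0.0832 over the 4 XBP1ΔDC pools and 1.48 ± 0.141 over the 3 XBP1ΔDCIRE1truncDC pools (mean ± SD), and control did not overlap with XBP1ΔDC. *Tram1* over *Tram2* was 94.4 ± 21.7, 78.2 ± 16.3 and 58.6 ± 2.72 in the same order. Every XBP1ΔDCIRE1truncDC pool (55.5 to 60.4) was below every control pool (77.2 to 122.6) and every XBP1ΔDC pool (62.1 to 96.1). This ratio rests on *Tram2* at 78 to 163 reads per pool, which did not pass between the Cre-positive groups (adjusted p = 0.967 with edgeR). *Sec61a1* over *Sec61a2* was 159 ± 37.2, 143 ± 79.1 and 248 ± 140.5, with SDs that overlapped between the groups.

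*Ncln*, a subunit of the multipass translocon, was at 111 to 126 CPM in control, 77.2 to 93.3 CPM in XBP1ΔDC and 105 to 117 CPM in XBP1ΔDCIRE1truncDC pools. The log2 difference between the Cre-positive groups was 0.37 (95% interval 0.18 to 0.57, adjusted p = 0.282 with edgeR), and DESeq2 called it.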
